A study of Rattus norvegicus with 18 samples.

Results

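The genes described here encode the subunits, activators and assembly factors of the proteasome and the ubiquitin-conjugating enzymes, called E2 enzymes. They were taken by gene name, as the probe sets annotated with exactly 1 rat symbol that begins with Psma to Psmg and a digit, or with Ube2, leaving out Ube2c. In all, 76 such genes were tested among 11982 genes of the series, 46 with a proteasome name and 30 with an E2 name. They came from 117 probe sets, of which 111 passed the filter on low values and 6 did not, and each of the 76 genes kept at least 1 probe set. Another 12 probe sets carry more than 1 symbol and were not used here.

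The study compared 2 cell populations sorted by flow cytometry from dissociated whole brains of male rats at postnatal day 7. A2B5, a ganglioside epitope, marks glial progenitors and also some neurons. O4, a sulfatide epitope, marks later cells of the oligodendrocyte lineage. There were 5 A2B5+ and 4 O4+ replicates, each from a litter of 10 pups, and each was run on 2 Affymetrix rat array types, called A and B, for 18 arrays in all. No genotype, strain or treatment is given for any sample, and whether an A2B5+ and an O4+ sample shared a litter is not settled by the labels. The population of each array was read from its title, since the source label of the second array type names only whole brain.

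Proteins are marked for destruction by a relay in which an E1 enzyme activates ubiquitin, an E2 enzyme carries it and an E3 ligase places it on the target. The proteasome then takes the marked protein apart. Its barrel-shaped core particle is built from rings of alpha and beta subunits, with the protease sites on the inside. The regulatory particle that caps the barrel has a base, which holds the ring of unfolding ATPases, and a lid, which removes the ubiquitin. Cells exposed to interferon swap the catalytic beta subunits for those of the immunoproteasome, which favours peptides for antigen presentation.

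The deposited values are ratios in which most probe sets have a median of exactly 1 over the 9 arrays of a type. They show how a gene differed between arrays and carry no level that could be set against another gene. All values below are log2 ratios after each array was centred on its median, and a difference is O4+ minus A2B5+. A gene was called where limma's moderated test, adjusted over all 11982 genes by the Benjamini-Hochberg method, gave an adjusted p under 0.05. Centring matters here, because the O4+ arrays of type A had higher medians: the median difference of all genes was 0.03 after centring and 0.14 without it, and 47.8% against 61.8% of all calls were rises. Counts of called members without centring are therefore printed beside those of each main class. These are bulk RNA samples, so fewer cells of a type and less RNA per cell cannot be told apart.

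The labels of the populations were borne out by markers: 9 of 9 oligodendrocyte genes were higher in O4+ cells, and 13 of 13 proliferation genes were lower. Of 6 markers of oligodendrocyte progenitors, 2 were higher and 4 lower. On average, the A2B5+ samples also held more RNA of other cell types. In the O4+ samples, 11 of 12 microglial, 8 of 11 endothelial and mural, 7 of 9 astrocyte and radial glia and 5 of 9 neuronal markers were lower, with 1 neuronal marker higher. O4+ replicate 2 stood apart. Its mean over the microglial list was -0.07, against -1.42 to -0.74 in the other O4+ replicates, so results below are given with and without it where it moves them.

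Proteasome genes called higher in O4+ cells were mostly those of the cap, its base and lid, and of the assembly factors, while both proteasome genes called lower belong to the immunoproteasome. Of the 44 genes placed in 7 structural classes, 17 were called higher (38.6%) and 2 lower (4.55%), with a median difference of 0.35. Over all genes tested, 18.7% were called higher and 20.4% lower. Without centring the counts were 28 higher (63.6%) and 2 lower, against 28.8% and 17.8% of all genes. The values of the populations did not overlap for 19 of the 44 genes in the direction of a rise (43.2%) and for 0 in the direction of a fall, where all genes gave 19.4% and 16.9%. Leaving out O4+ replicate 2 gave 13 higher and 4 lower. The count of rises was 9 without A2B5+ replicate 3 or without A2B5+ replicate 4, 10 without O4+ replicate 1, and 11 without A2B5+ replicate 5 or without O4+ replicate 3, so its size depends on single samples.

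**Figure D1:**
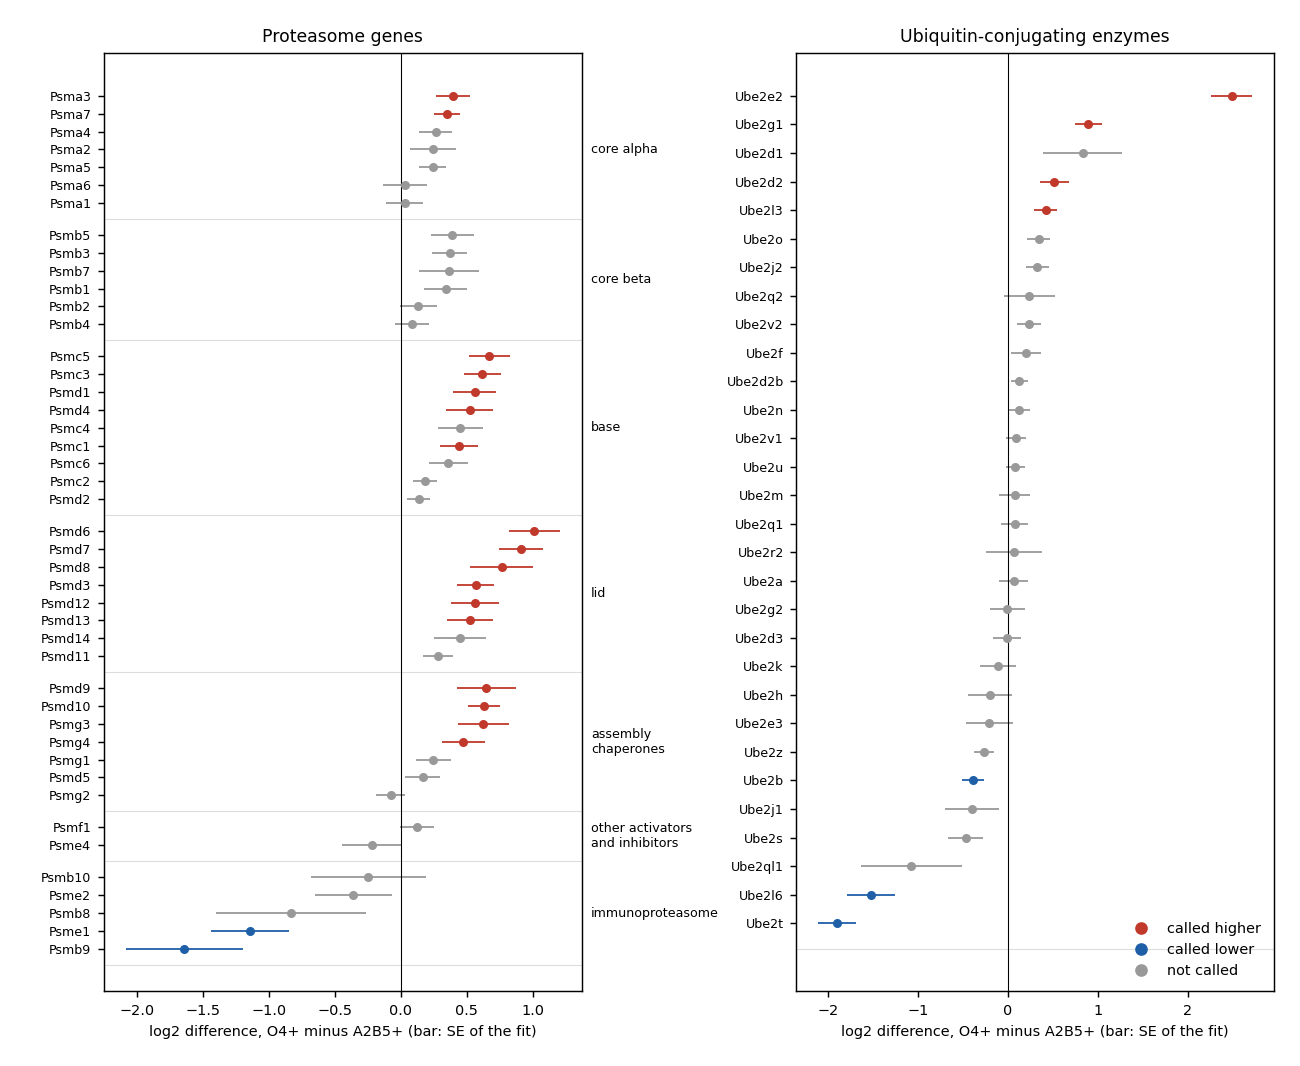
Each point is the log2 difference between O4+ (n = 4) and A2B5+ (n = 5) cells for 1 gene, with its standard error from limma as a bar, for the 44 classed proteasome genes (left, grouped by structural class) and the 30 E2 enzymes (right). Red and blue points were called higher and lower, and grey points were not called. All 30 core, base and lid genes lie to the right of 0, all 5 immunoproteasome genes lie to the left, and the E2 enzymes lie on both sides.

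All 30 genes of the core, base and lid had positive differences, from 0.03 for Psma1 to 1.01 for Psmd6, with a median of 0.38, whereas 52.1% of all genes were positive. That depended on O4+ replicate 2, without which Psma6, Psma1 and Psmb4 had -0.14, -0.05 and -0.03. Under quantile normalisation Psma6 had -0.04. Of the 30 genes, 13 were called higher and 0 lower. At an unadjusted p under 0.05 the counts were 20 and 0. The share of all genes at that unadjusted threshold was not counted, so this count and those at it below have no reference. The mean of the 30 genes lay between -0.24 and -0.01 in the 5 A2B5+ replicates. In O4+ replicates 1 to 4 it was 0.26, 0.44, 0.27 and 0.19. Every O4+ replicate was thus above every A2B5+ replicate, and replicate 2 was the highest.

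After centring, the lid had the most calls of the classes for its size. Of its 8 genes 6 were called higher (75.0%, against 18.7% of all genes), with a median of 0.56. Without centring 7 were called (87.5%, against 28.8% of all genes). After centring all 8 had an unadjusted p under 0.05, and 5 were called without O4+ replicate 2. Lid calls fell to 3 without A2B5+ replicate 3 or without A2B5+ replicate 5.

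Psmd6, a scaffold subunit of the lid, had the largest rise of any proteasome gene. Its A2B5+ values were 0.10, -0.26, -0.32, -0.30 and -0.66, and its O4+ values were 0.65, 0.51, 1.23 and 0.50. The populations did not overlap, and the difference was 1.01 ± 0.19 (SE), or 2.02-fold (adjusted p = 0.0027).

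Psmd7, the lid subunit that pairs with the deubiquitinase of the proteasome, behaved alike. It read 0.10, -0.52, -0.38, -0.50 and -0.32 in A2B5+ cells and 0.71, 0.25, 0.54 and 0.84 in O4+ cells. Again every O4+ value was above every A2B5+ value, with a difference of 0.91 ± 0.17 (adjusted p = 0.0021). Psmd7 is also on array B, where its difference was 0.76 ± 0.18 and was called as well (adjusted p = 0.012). It was the only one of the 15 members measured on both array types that was called on both.

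Psmd3, another lid scaffold, rose by 0.57 ± 0.14 (adjusted p = 0.011). Its O4+ values of 0.23 to 0.67 lay above its A2B5+ values of -0.43 to 0.10. These 3 lid genes kept their call in every one of the 15 alternative settings tried.

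The other lid calls were less firm. Psmd8 rose by 0.76 ± 0.24 (adjusted p = 0.029), but its O4+ values of 0.59, 1.08, 0.12 and 0.14 were spread widely and 2 of them were close to the highest A2B5+ value of 0.10. Without O4+ replicate 2 its adjusted p was 0.063, and the call was also lost without A2B5+ replicate 2, 3 or 5 or without O4+ replicate 1. Psmd12 rose by 0.56 ± 0.18 and Psmd13 by 0.52 ± 0.18, and the highest adjusted p on leaving out a single sample was 0.091 and 0.080. The call of Psmd12 was lost without any 1 of A2B5+ replicates 1, 3, 4 and 5 or O4+ replicates 1, 3 and 4, and that of Psmd13 without any 1 of the A2B5+ replicates or O4+ replicate 4. Psmd14, the deubiquitinase itself, had 0.45 ± 0.20 (adjusted p = 0.0996), and Psmd11, a lid scaffold, had 0.28 ± 0.12 (adjusted p = 0.077).

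In the base, 5 of 9 genes were called higher (55.6%, against 18.7% of all genes), with a median of 0.45. Without centring 8 were called (88.9%, against 28.8% of all genes). After centring, 4 were called without O4+ replicate 2. Counts of 2 or 3 resulted when O4+ replicate 1, or A2B5+ replicate 3, 4 or 5, was left out.

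Psmc5, an ATPase of the unfolding ring, had A2B5+ values of -0.13, 0.12, -0.17, -0.04 and -0.05 and O4+ values of 0.45, 1.09, 0.44 and 0.49. There was no overlap, and O4+ replicate 2 was far above the rest of its group. The difference was 0.67 ± 0.15 (adjusted p = 0.0069), and 0.51 without that replicate (adjusted p = 0.0046). Psmc3, a second ATPase, read 0.10, -0.01, -0.07, -0.05 and -0.37 in A2B5+ cells and 0.58, 0.75, 0.22 and 0.60 in O4+ cells. Its populations were also separate, by 0.62 ± 0.14 (adjusted p = 0.0068). Both ATPases were called in all 15 alternatives.

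Psmd1, a scaffold of the base, rose by 0.56 ± 0.16, a call lost without O4+ replicate 1 or 3. Psmd4, a receptor for ubiquitin chains, rose by 0.52 ± 0.18, and by 0.33 without O4+ replicate 2, where the adjusted p was 0.060. Its call was lost as well without A2B5+ replicate 1, 3, 4 or 5 or O4+ replicate 1. The ATPase gene Psmc1 rose by 0.44 ± 0.15, which was not called without A2B5+ replicate 2, 3, 4 or 5 or without O4+ replicate 1 or 4, nor under quantile normalisation (adjusted p = 0.062). Psmc4 had 0.45 ± 0.17 on array A (adjusted p = 0.060) and was called on array B at 0.36 ± 0.08 (adjusted p = 0.0067). Its array B probe sets differed, at 0.63, called higher, and 0.08, not called. The remaining ATPases Psmc6 and Psmc2 had 0.36 ± 0.15 and 0.18 ± 0.09, and the scaffold Psmd2 had 0.13 ± 0.09, none of them called. The probe sets of Psmc6 gave 0.58, called higher, and 0.14, not called.

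Of the core, base and lid, the core had the smallest median. All 13 core genes were positive with O4+ replicate 2 included, with a median of 0.26, but 2 were called higher (15.4%), near the 18.7% of all genes. Without centring 7 were called (53.8%), and under quantile normalisation 0 were, with adjusted p = 0.052 for Psma3 and 0.056 for Psma7. The 2 calls were alpha subunits, which form the outer rings and gate the barrel. Psma3 rose by 0.40 ± 0.13 (adjusted p = 0.036), with O4+ replicate 2 at -0.04 inside the A2B5+ range of -0.24 to 0.00, and its call was lost without A2B5+ replicate 1, 2 or 4 or O4+ replicate 1, 3 or 4. Psma7 rose by 0.35 ± 0.10 (adjusted p = 0.020), and its O4+ values of 0.25 to 0.32 were tightly grouped above A2B5+ values of -0.18 to 0.10. On array B, Psma7 had 0.42 ± 0.17 and was not called (adjusted p = 0.095). Psma6 and Psma1 had the smallest differences of the alpha genes, both 0.03.

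None of the 6 beta subunits of the constitutive core was called, although 2 had an unadjusted p under 0.05. Psmb5, which carries the chymotrypsin-like site, had 0.39 ± 0.16 (adjusted p = 0.081), and its populations overlapped, with O4+ values of -0.03, 0.41, 0.35 and -0.06. Psmb3 was just short of the threshold at 0.37 ± 0.13 (adjusted p = 0.0503), and Psmb7, which carries the trypsin-like site, had 0.36 ± 0.23, with 0.88 in O4+ replicate 2 and -0.11 to 0.08 in the other O4+ replicates. Psmb2 and Psmb4 had 0.13 ± 0.14 and 0.08 ± 0.13, and Psmb6, which carries the caspase-like site, is on none of the probe sets used. The mean of the 6 beta genes in that replicate was 0.49, against -0.03 to 0.19 in the other O4+ replicates.

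The factors that help to build the particle moved with the base and lid. Of 7 assembly genes, 4 were called higher (57.1%, against 18.7% of all genes), with a median of 0.47. Without centring 6 were called (85.7%, against 28.8% of all genes). Psmd10, the oncoprotein gankyrin that chaperones the base, had A2B5+ values of -0.26, -0.47, -0.35, -0.29 and 0.00 and O4+ values of 0.47, 0.20, 0.37 and 0.37. Its populations were apart, with a difference of 0.63 ± 0.12 (adjusted p = 0.0028), and its call was kept in all 15 alternatives. Psmd9, another base chaperone, rose by 0.65 ± 0.22 (adjusted p = 0.044) with 1.31 in O4+ replicate 2, and its call was lost without any 1 of the A2B5+ replicates or O4+ replicates 1 and 3. The call was lost too under quantile normalisation and without the filter on low values (adjusted p = 0.052 in both). On array B it had 0.21 ± 0.08 and was not called. Psmg3 and Psmg4, which help to assemble the core, rose by 0.63 ± 0.19 and 0.47 ± 0.16. Without O4+ replicate 2 neither was called (adjusted p = 0.069 and 0.095), nor without O4+ replicate 3 or A2B5+ replicate 3 or 4, and Psmg4 was not called without A2B5+ replicate 2 or under quantile normalisation (adjusted p = 0.061) either. Psmg1, Psmd5 and Psmg2 had 0.25, 0.16 and -0.08 and were not called.

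Of the alternative caps and inhibitors, Psme4, the nuclear activator, had -0.22 ± 0.22 and Psmf1, an inhibitor of the core, had 0.12 ± 0.13. Neither was called, and neither had an unadjusted p under 0.05.

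**Figure D2:**
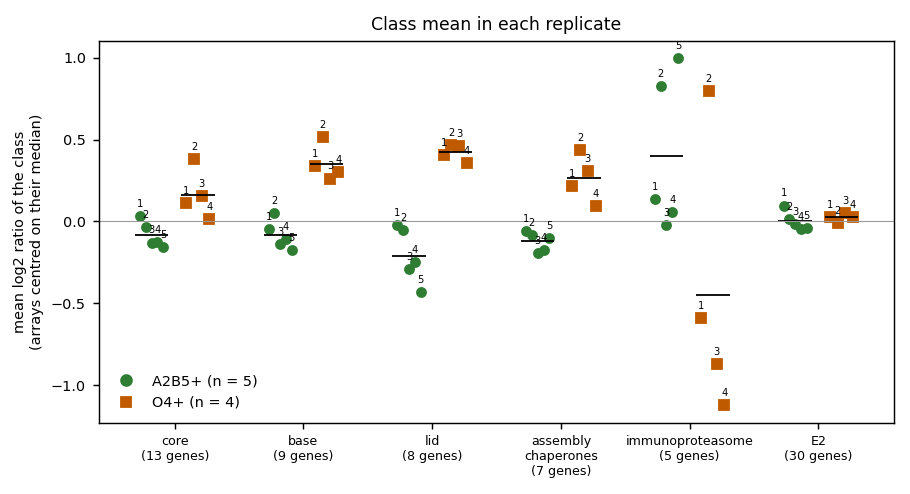
Points are the mean log2 ratio of all tested genes of a class in 1 replicate (number beside the point), after centring, for A2B5+ (green circles, n = 5) and O4+ cells (orange squares, n = 4), with the group mean as a line. Base, lid and assembly genes separate the populations, O4+ replicate 2 sits at 0.80 on the immunoproteasome genes while the other O4+ replicates lie between -1.12 and -0.59, and the E2 means of the populations overlap.

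The immunoproteasome genes had differences of the other sign. Of the 5 genes 2, Psmb9 and Psme1, were called lower with and without centring (40.0%). Over all genes, 20.4% were called lower with centring and 17.8% without it. The 5 differences ranged from -1.64 to -0.25, with a median of -0.83, and the other 3 were not called. Their class mean was 0.83 and 1.00 in A2B5+ replicates 2 and 5 and between -0.02 and 0.14 in the other A2B5+ replicates. In O4+ replicates 1 to 4 it was -0.59, 0.80, -0.87 and -1.12. O4+ replicate 2 was therefore at the level of the highest A2B5+ samples, and none of the 5 genes had populations that did not overlap. Without that replicate 4 of the 5 were called lower, and the class median was -1.39.

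Psmb9, the inducible catalytic subunit that replaces the caspase-like one, had the largest fall. It read 0.69, 1.23, 0.05, 0.00 and 1.51 in A2B5+ cells and -0.88, 0.25, -1.58 and -1.57 in O4+ cells. Only O4+ replicate 2 lay inside the A2B5+ range, and the difference was -1.64 ± 0.44, or 3.12-fold lower (adjusted p = 0.015). Without that replicate it was -2.04 (adjusted p = 0.0031), and the call was kept in all 15 alternatives.

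Psme1, 1 of the 2 subunits of the interferon-inducible cap, read 0.10, 0.38, 0.08, 0.22 and 0.53 in A2B5+ cells and -0.90, 0.14, -1.44 and -1.34 in O4+ cells. It was lower by the same pattern, with -1.15 ± 0.29 (adjusted p = 0.012) and -1.49 without O4+ replicate 2. A different probe set for Psme1 on array B gave 0.01 ± 0.09 (adjusted p = 0.96), so the fall was measured by 1 of its 2 probe sets. Psmb8, which replaces the chymotrypsin-like subunit, had A2B5+ values of -0.14, 1.39, 0.10, 0.14 and 1.58 and O4+ values of -0.21, 1.43, -0.83 and -1.28. The spread within each population was as wide as the difference of -0.83 ± 0.57, which was not called (adjusted p = 0.26). Leaving out O4+ replicate 2 made it -1.39 (adjusted p = 0.040). Psme2, the partner of Psme1, had -0.36 ± 0.29 (adjusted p = 0.34), and -0.68 without that replicate (adjusted p = 0.018). Psmb10, the inducible trypsin-like subunit, had -0.25 ± 0.44 and was not called in either case.

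The O4+ replicate with the high immunoproteasome values also had the highest mean of its group for interferon and antigen presentation genes, at -0.09 against -0.69 to -0.59, and for microglial markers. The same held for endothelial and mural markers (-0.93 against -2.06 to -1.01) and proliferation genes (-1.22 against -1.90 to -1.48). It did not hold for astrocyte and radial glia or neuronal markers. The A2B5+ replicates with the highest immunoproteasome means, 2 and 5, had microglial means of 0.85 and 0.66 against 0.07 to 0.50 in the others. Of 15 interferon and antigen presentation genes, 7 were called lower and 0 higher, with 10 lower and 0 higher at an unadjusted p under 0.05, and without centring 6 were lower. The part of these genes and of the microglial markers in the immunoproteasome result was not tested. Psmb8 and Psmb9 flank Tap1 in the RefSeq gene order of GRCr8, with Tap2 on the other side of Psmb8. Tap1 and Tap2, which carry peptides into the endoplasmic reticulum, differed by -1.48 ± 0.34 and -1.68 ± 0.39 (adjusted p = 0.0068 and 0.0071).

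**Figure D3:**
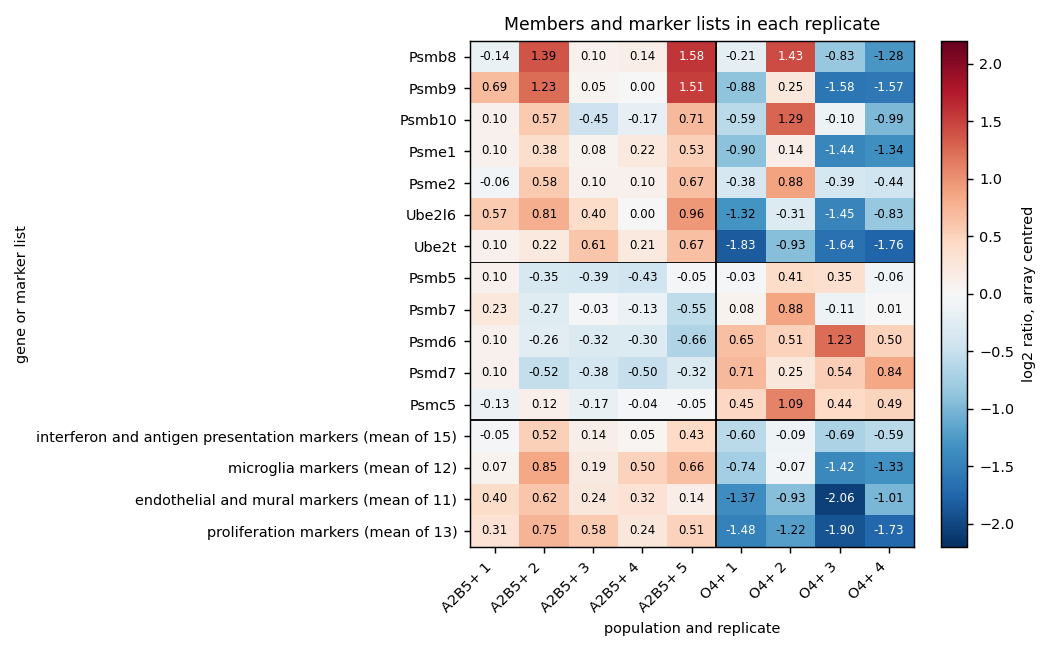
The map shows the centred log2 ratio (colour and printed value) of 12 members and the mean of 4 marker lists (rows) in the 5 A2B5+ and 4 O4+ replicates (columns). In the first 5 lines O4+ replicate 2 is the highest O4+ replicate, whereas Ube2l6 and Ube2t are below 0 in all 4 O4+ replicates and Psmd6, Psmd7 and Psmc5 are above 0 in all 4.

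Promoters were searched for short motifs, of which 2 were planned and 2 were added later. RefSeq promoter windows for GRCr8, of 250 bases before and 50 after a gene's start, were found for 69 of the 76 members. The letters TGACNNNGC, the core of the antioxidant response element to which the proteasome-inducing factor Nfe2l1 and its relatives bind, were searched on both strands. They stood in 5 of 26 core, base and lid promoters (19.2%), 1 of 7 assembly promoters (14.3%) and 8 of 27 E2 promoters (29.6%). The share was 0 of 5 for immunoproteasome promoters and 12.2% for all 27457 promoters. The CCAAT box stood in 9 of 12 core promoters (75.0%) against 37.7% of all, but in 3 of 9 base promoters (33.3%), 2 of 5 lid promoters, 2 of 5 immunoproteasome promoters and 9 of 27 E2 promoters (33.3%). The letters GAAA, any 2 bases and GAAA again, as in interferon-stimulated response elements, were added after the values were seen. They stood in 3 of 5 immunoproteasome promoters, those of Psmb8, Psmb10 and Psme2, in 3 of 26 core, base and lid promoters and in 3.77% of all. None of these 3 immunoproteasome genes was called, and the 2 called lower, Psmb9 and Psme1, had no match. TTCNNNGAA, the STAT-type palindrome, was added likewise and stood in 1 of 5 immunoproteasome promoters, that of Psmb8, and 8.68% of all. The stretches below show a match upstream of the start for 2 genes called higher, the assembly gene Psmd9 and the base gene Psmd1. The other 2 are from immunoproteasome genes that were not called. All stretches are on the strand of their gene with the matched letters in capitals. They run from GRCr8 chr12:39018303-39018371 (minus strand), chr9:94157776-94157844 (plus), chr19:50743326-50743395 (minus) and chr15:33052765-33052834 (minus), in that order.
Psmd9: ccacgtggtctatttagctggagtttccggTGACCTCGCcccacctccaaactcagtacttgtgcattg
Psmd1: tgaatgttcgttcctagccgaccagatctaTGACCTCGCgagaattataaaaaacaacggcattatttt
Psmb10: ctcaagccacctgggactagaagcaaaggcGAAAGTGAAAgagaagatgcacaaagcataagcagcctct
Psme2: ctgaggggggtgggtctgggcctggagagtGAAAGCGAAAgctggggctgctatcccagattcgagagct
The capitals begin 77 bases before the start of Psmd9, 165 before that of Psmd1, 73 before that of Psmb10 and 53 before that of Psme2. In these stretches Psmd9 and Psmd1 have the same matched letters, while Psmb10 and Psme2 differ in the middle of theirs. Psmd9, Psmd1 and Psmb10 each have another match that is not printed. That of Psmb10, 17 bases before the start, is GAAAGCGAAA, the same letters as in Psme2. Those of Psmd9 and Psmd1, GCCGGGTCA and TGACTGAGC, are not alike. A match describes these letters and is not evidence of binding. Nfe2l1 itself had 0.02 ± 0.12 (adjusted p = 0.92).

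The E2 enzymes showed no shift as a family, but single members differed widely. Of 30 tested, 4 were called higher (13.3%) and 3 lower (10.0%), both below the shares of all genes, with a median of 0.08. Without centring 7 were higher (23.3%) and 2 lower (6.67%), against 28.8% and 17.8% of all genes. Populations did not overlap for 5 in the direction of a rise (16.7%) and 3 in that of a fall (10.0%). All genes gave 19.4% and 16.9%. Without O4+ replicate 2 the calls were 4 higher and 5 lower, with Ube2s and Ube2z added at -0.62 and -0.32 (adjusted p = 0.020 and 0.040). Without A2B5+ replicate 3 only 2 were higher.

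Ube2e2, an E2 that works with RING-type ligases, had the largest rise of all members. Its A2B5+ values were 0.10, -0.83, -0.57, -0.87 and -0.68 and its O4+ values were 1.78, 1.88, 2.41 and 1.63. The gap between the populations was wide, with a difference of 2.49 ± 0.23, or 5.63-fold (adjusted p = 3.9e-05). On array B another probe set for Ube2e2 gave -0.07 ± 0.14 (adjusted p = 0.74), so the 2 probe sets that carry this name do not give the same result.

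Ube2g1, which extends chains with cullin ligases, read -0.08, -0.39, -0.03, -0.01 and -0.46 in A2B5+ cells and 0.87, 0.37, 0.72 and 0.85 in O4+ cells. The populations were apart, by 0.90 ± 0.15 (adjusted p = 0.0014), and both of its probe sets were called higher, at 0.89 and 0.91. Its call was kept in all 15 alternatives.

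Ube2d2, a broadly used E2, rose by 0.52 ± 0.16 (adjusted p = 0.027). Its 3 probe sets gave 0.34, 0.53 and 0.69, of which the second was called, and the gene's call was lost without A2B5+ replicate 3 or 5 or O4+ replicate 1, 3 or 4. Ube2l3, which serves HECT and RBR ligases such as parkin, rose by 0.42 ± 0.13 (adjusted p = 0.024). Its O4+ values of 0.16 to 0.58 lay above its A2B5+ values of -0.32 to 0.04, and its call was lost without A2B5+ replicate 1 or 3.

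Ube2t, the E2 of the Fanconi anaemia pathway of DNA crosslink repair, had the largest fall of all members. It read 0.10, 0.22, 0.61, 0.21 and 0.67 in A2B5+ cells and -1.83, -0.93, -1.64 and -1.76 in O4+ cells. All O4+ values were far below all A2B5+ values, by -1.90 ± 0.21, or 3.74-fold (adjusted p = 1.2e-04). The proliferation genes were likewise lower in every O4+ replicate, with list means of 0.24 to 0.75 in A2B5+ and -1.90 to -1.22 in O4+ replicates, and their part in the Ube2t result was not tested.

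Ube2l6, the E2 for the ubiquitin-like interferon product ISG15, read 0.57, 0.81, 0.40, 0.00 and 0.96 in A2B5+ cells and -1.32, -0.31, -1.45 and -0.83 in O4+ cells. Unlike for the immunoproteasome genes, the populations did not overlap, although O4+ replicate 2 was again the highest of its group. The difference was -1.53 ± 0.27 (adjusted p = 0.0016), and -1.75 without that replicate. Uba7, the E1 of the same modifier, was lower as well, at -0.84 ± 0.21 (adjusted p = 0.011). Isg15 itself had -0.48 ± 0.24 (adjusted p = 0.13) and Usp18, which removes it, had -0.70 ± 0.26 (adjusted p = 0.056).

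Ube2b, which acts in replication past DNA damage, fell by 0.39 ± 0.12 (adjusted p = 0.032). Its 2 tested probe sets gave -0.69, which was called, and -0.09, which was not, and the gene's call was lost without A2B5+ replicate 1, 3 or 4 or O4+ replicate 3 or 4. Without centring the difference was -0.22 (adjusted p = 0.18), and the call was also lost under quantile normalisation (adjusted p = 0.053) and without the filter on low values (adjusted p = 0.074), so it held in 6 of 15 alternatives. Ube2j1, an enzyme of the endoplasmic reticulum that disposes of misfolded proteins, had -0.40 ± 0.30 on array A (adjusted p = 0.32) and was called lower on array B at -0.65 ± 0.10 (adjusted p = 0.0016). Ube2s, which lengthens chains for the anaphase-promoting complex, had -0.47 ± 0.19 (adjusted p = 0.081).

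The 23 E2 genes not called ranged from Ube2ql1 at -1.08 ± 0.56 to Ube2d1 at 0.83 ± 0.44, both with wide spread in A2B5+ cells, from -0.66 to 2.30 and from -1.17 to 0.89. Ube2m and Ube2f, the E2 enzymes for the ubiquitin-like NEDD8, had 0.08 ± 0.17 and 0.20 ± 0.17. The probe sets of Ube2f differed, at 0.58, called higher, and -0.18, not called. Ube2n, which builds signalling chains with a Ube2v partner, had 0.13 ± 0.12, and its partners Ube2v1 and Ube2v2 had 0.09 ± 0.11 and 0.23 ± 0.13. The smallest differences were those of Ube2g2 and Ube2d3, at -0.0042 and -0.011. No member had 1 probe set called higher and another called lower.

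Both remaining genes match by name but are not proteasome subunits. Psmc3ip, a partner of the recombinases of meiosis, was lower, at -1.35 ± 0.23 (adjusted p = 0.0014), and Psme3ip1, named for its binding to an activator of the proteasome, rose by 0.50 ± 0.13 (adjusted p = 0.011). Their populations did not overlap.

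**Figure D4:**
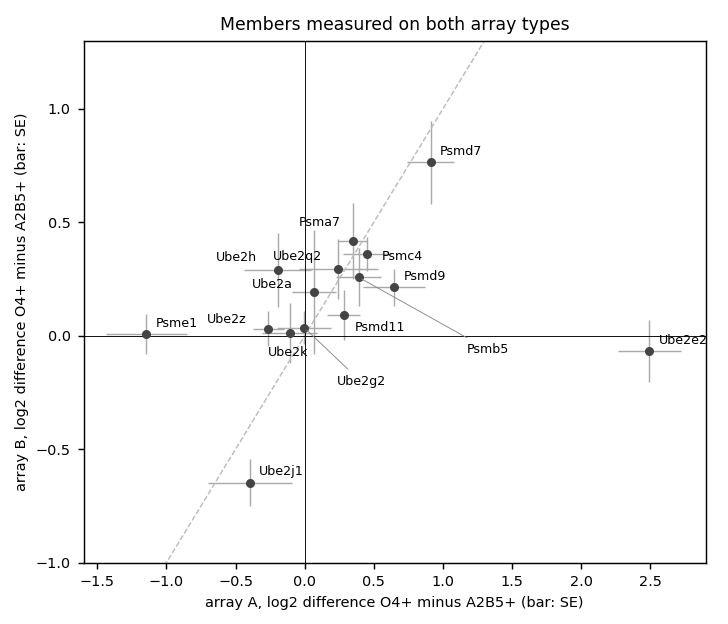
Each point is 1 of the 15 members with tested probe sets on both array types, at its log2 difference (O4+ minus A2B5+, n = 4 and 5) on array A (horizontal) and array B (vertical), with standard errors as bars and the line of equal values dashed. Psmd7 lies near the line and is called on both types, whereas Ube2e2 and Psme1 lie far from 0 on array A and near 0 on array B.

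Of the 15 members on both types, 9 had the same sign on each and 9 had the same call, and 0 were called in opposite directions. In the 3 with the most unlike differences, Ube2e2, Psme1 and Ube2h, the types gave 2.49 and -0.07, -1.15 and 0.01, and -0.20 and 0.29. The probe sets of a gene on the 2 types are different, and which transcripts each measures was not tested.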

How the data were processed

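Total RNA of sorted cells was hybridised to Affymetrix arrays. The authors deposited linear ratios, and GCRMA is named per the submitters' processing notes. The version and how the ratios were formed are not given in the sources used here. Probe sets other than controls were kept where the ratio was at least 1 on 4 or more of the 9 arrays (13098 on array A and 11136 on array B). Of the kept probe sets, only those with 1 symbol in the platform annotation were used for genes. Ratios were log2-transformed and centred on each array's median, and probe sets of a gene were averaged, from array A before array B (9045 and 2937 genes). The test was limma 3.58.1 in R 4.3.3, two-sided, tested on simulated data. Values are from 5 and 4 replicates, so p-values measure the spread between these replicates. Alternatives were no centring, quantile normalisation, no filter, a median ratio of at least 1, array B before array A, a replicate block and leaving out each sample. The members and lists were chosen with earlier results of these data known. Named were, per class, the 4 largest called rises and falls and the 2 smallest differences not called, the catalytic subunits with Psme1 and Psme2, genes whose array types differed in call, and per pathway list the 2 largest called rises and falls. Other named genes were chosen after their values were seen.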

Additional observations from a re-analysis of the deposited data

Results flagged for a closer look

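Groups of 4 or 5 replicates were checked for the members named by the rule given above. The class means of core, base, lid, immunoproteasome and E2 genes were checked too. Other members named in the text, such as Psmd12, Psmd13, Psmc1 and Psmg1, were not checked. In 6 of 102 such groups, all of single members, the highest or lowest sample stood far from the others. Chance alone gives about 1 in 20 such groups, and 6 of 102 is 5.88%. O4+ replicate 2 was the high sample for Psme2 at 0.88, next value -0.38, for Psmc5 at 1.09, next value 0.49, for Psma1 at 0.22 and for Ube2d3 at 0.20. O4+ replicate 4 was the high one for Psma7 at 0.32, in a group whose other values lay near 0.26. A2B5+ replicate 5 was the low one for Psmd3 at -0.43, next value -0.05.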

How the results depend on the processing

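Of the 28 calls among members, 12 held in all 15 alternatives. Without centring, 28 proteasome, 7 core, 8 base and 7 E2 genes were called higher. Quantile normalisation gave 0 core calls, and no filter gave 4. With array B before array A, 1 proteasome gene and 1 immunoproteasome gene were called lower, Psme1 reversed to 0.0068 and Ube2e2 to -0.068 (both then measured by the array B probe set), and 17 other pathway genes were lower. Leaving out single replicates gave 9 to 14 proteasome genes higher and 2 to 4 lower, 1 to 2 core, 2 to 5 base and 3 to 5 lid genes higher, 2 to 4 immunoproteasome genes lower, and 2 to 4 E2 genes higher and 2 to 5 lower. Apart from the array choice, the cause was not tested. Same-numbered samples did not all deviate together, so the number was not taken as a pairing. Their correlations were 0.02, 0.31, 0.27 and 0.17 on array A and 0.24, -0.13, 0.07 and -0.20 on array B. A replicate block gave 13 proteasome genes higher and 2 lower, 1 core and 3 base genes higher, and ended the calls of Psma7, Psmc1, Psmd12, Psmd4, Ube2b, Ube2d2 and Cdc26. With 4 and 5 replicates and ratios of unknown signal, small differences cannot be resolved.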

Other observations

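The rest of the ubiquitin relay, from lists chosen with earlier results known, showed both directions in limma's test after centring. Of 8 ubiquitin and E1 genes, 0 were higher and 2 lower: Uba7 at -0.84 ± 0.21 and Sae1, of the SUMO-activating enzyme, at -0.59 ± 0.11. At an unadjusted p under 0.05 the counts were also 0 and 2. Uba1, the main E1, had 0.19 ± 0.23. Of 19 partners of the proteasome 4 were higher and 0 lower (5 and 1 at an unadjusted p under 0.05), led by Ufd1 at 0.78 ± 0.11, which with the segregase Vcp at 0.46 ± 0.12 extracts marked proteins, and Ubqln1, a shuttle factor, at 0.53 ± 0.13. Of the 4 E2 enzymes with other names, Cdc34, which serves cullin ligases, rose by 0.45 ± 0.12, and all 4 were called without centring.

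Of 31 E3 genes 6 were higher and 3 lower. Siah2, a RING ligase, rose by 1.85 ± 0.33 and Ube3b by 0.60 ± 0.16. Nedd4l, a HECT ligase for ion channels, had -2.53 ± 0.20, and Fbxw7, the substrate receptor for cyclin E and Notch, had -1.01 ± 0.21. The deubiquitinases, the longest list, had 10 of 35 higher and 4 lower. Usp30, of the mitochondrial surface, rose by 1.95 ± 0.17 and Usp54 by 1.56 ± 0.32, while Usp24 had -1.41 ± 0.31 and Usp1, which acts on Fanconi pathway proteins, had -0.87 ± 0.16. Of 15 genes of the anaphase-promoting complex and its partners 3 were higher and 2 lower: Anapc11 rose by 0.83 ± 0.17 and Cdc26 by 0.36 ± 0.10, and the mitotic partners Ube2c and Cdc20 had -1.99 ± 0.21 and -0.87 ± 0.14. The call of Cdc26 was lost without O4+ replicate 1 or 3, and that of Usp30 with array B before array A. The shares of all genes are 18.7% higher and 20.4% lower. Without centring, where they are 28.8% and 17.8%, the counts higher and lower were 1 and 2 for the E1 list, 5 and 0 for the partners, 8 and 3 for the E3 genes, 13 and 3 for the deubiquitinases, and 4 and 2 for the anaphase-promoting complex.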
